A study of Mus musculus with 43 samples.

Results

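The clustered protocadherins (*Pcdha*, *Pcdhb* and *Pcdhg*) were examined in single neurons of the lateral nucleus accumbens that project to the ventral tegmental area (NAcLat→VTA). The members were the rows whose symbol is a numbered *Pcdha*, *Pcdhb*, *Pcdhga* or *Pcdhgb* gene, *Pcdhac1* or *Pcdhac2*, or *Pcdhgc3*, *Pcdhgc4* or *Pcdhgc5*, which gave 57 of the 35825 genes listed. They comprised 13 alpha genes, 22 beta genes and 22 gamma genes. Of these, 5 are C-type isoforms (*Pcdhac1*, *Pcdhac2*, *Pcdhgc3*, *Pcdhgc4* and *Pcdhgc5*), and the other 52 are called alternate isoforms here.

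The data comprise 43 NAcLat→VTA neurons from C57BL/6J mice, male and female by the study's methods. The methods list the mice used as 6–8 weeks old, and the age at recording, after the diet, is not stated. Fluorescent beads had been placed in the ventral tegmental area, and the cytosol of each neuron was drawn into the patch pipette after recording. Each neuron was sequenced as 1 library. A set of 23 neurons came from mice kept on standard chow with free access (REG, labelled NORM), and 20 neurons came from mice that could eat both standard and high-fat chow freely for at least 4 weeks (HFD). Batch 1 held 13 REG and 5 HFD cells, and batch 2 held 10 REG and 15 HFD cells. No label names the mouse of a cell, so each diet counts as 1 sample, values over cells are descriptions and no test was made. An interval on a share of cells treats the cells as separate draws, and an interval on summed counts treats the reads as separate draws. Neither covers differences between mice. Cells of 1 mouse are not independent and reads copied by PCR do not stand for separate molecules, so the intervals do not give the full error.

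Clustered protocadherins are cadherin-related adhesion proteins of the neuronal surface. Each alpha and gamma gene contributes its own first exon, with its own promoter, which is spliced to constant exons shared by all genes of that cluster, whereas each beta gene is a single coding exon. A neuron typically uses a limited and largely random set of the alternate promoters, a choice that depends on the insulator protein CTCF, cohesin and DNA methylation, while C-type promoters follow other rules. The resulting sets of isoforms, which bind the same isoforms on another membrane, give neurons a surface identity that is used in self-avoidance of dendrites and in axon wiring.

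All 57 genes lie on the plus strand of chromosome 18 (GRCm38). The alpha genes span positions 36930184 to 37187661, the beta genes 37264938 to 37524479 and the gamma genes 37661793 to 37841873. Because constant exons are shared, reads from them fit many genes, and the authors' pseudoaligner divides such reads among transcripts, giving estimated counts that need not be whole. Of 31-base words in the transcripts of a gene, the share found in no other member had a median of 37.5% in alternate alpha genes, 88.2% in beta genes, 53.7% in alternate gamma genes and 61.9% in C-type genes. Of the beta counts above 0, 69.8% were within 0.01 of a whole number, against 35.6% for alternate alpha genes, 13.2% for alternate gamma genes, 12.9% for C-type genes and 65.5% over all genes. The order of these shares differs from that of the own words among the alpha, gamma and C-type genes.

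The total estimated count of a cell ranged from 176961 to 16919555, with a median of 1426795. The GABAergic markers *Gad1* and *Gad2* and the D1 medium spiny neuron markers *Drd1*, *Tac1*, *Pdyn* and *Ppp1r1b* were detected in all 43 cells, and the GABAergic marker *Slc32a1* in 36. Markers of other cell types were also present, with all 6 astrocyte, 7 microglia, 6 oligodendrocyte and 5 endothelial markers counted in at least 1 cell. Summed marker levels ran from 9.33 to 1136 CPM (counts scaled to a cell total of 1000000) in REG cells and 18.1 to 1233 CPM in HFD cells for astrocytes, from 0 to 1245 and 1.14 to 1389 CPM for microglia, from 0.974 to 854 and 3.59 to 981 CPM for oligodendrocytes, and from 18.6 to 2309 and 44.8 to 4078 CPM for endothelial cells. *S100b* and *Pecam1* were the only markers of those lists detected in all 43 cells, whereas *Mog*, *Cldn5* and *Cdh5* were each counted in 1 cell. Their part in the levels of the protocadherins was not tested.

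A neuron carried counts on few of the 57 genes. The number detected, defined as an estimated count above 0, ranged from 4 to 23 with a median of 11. At an estimated count of at least 10 the median was 5 (range 0 to 18), and at a level above 15 CPM it was 3 (range 0 to 13). A residue of the read division is counted by the first limit, as 8 of the 486 values above 0 were below 1 count, but a limit of 1 count also gave a median of 11.

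**Figure D1:**
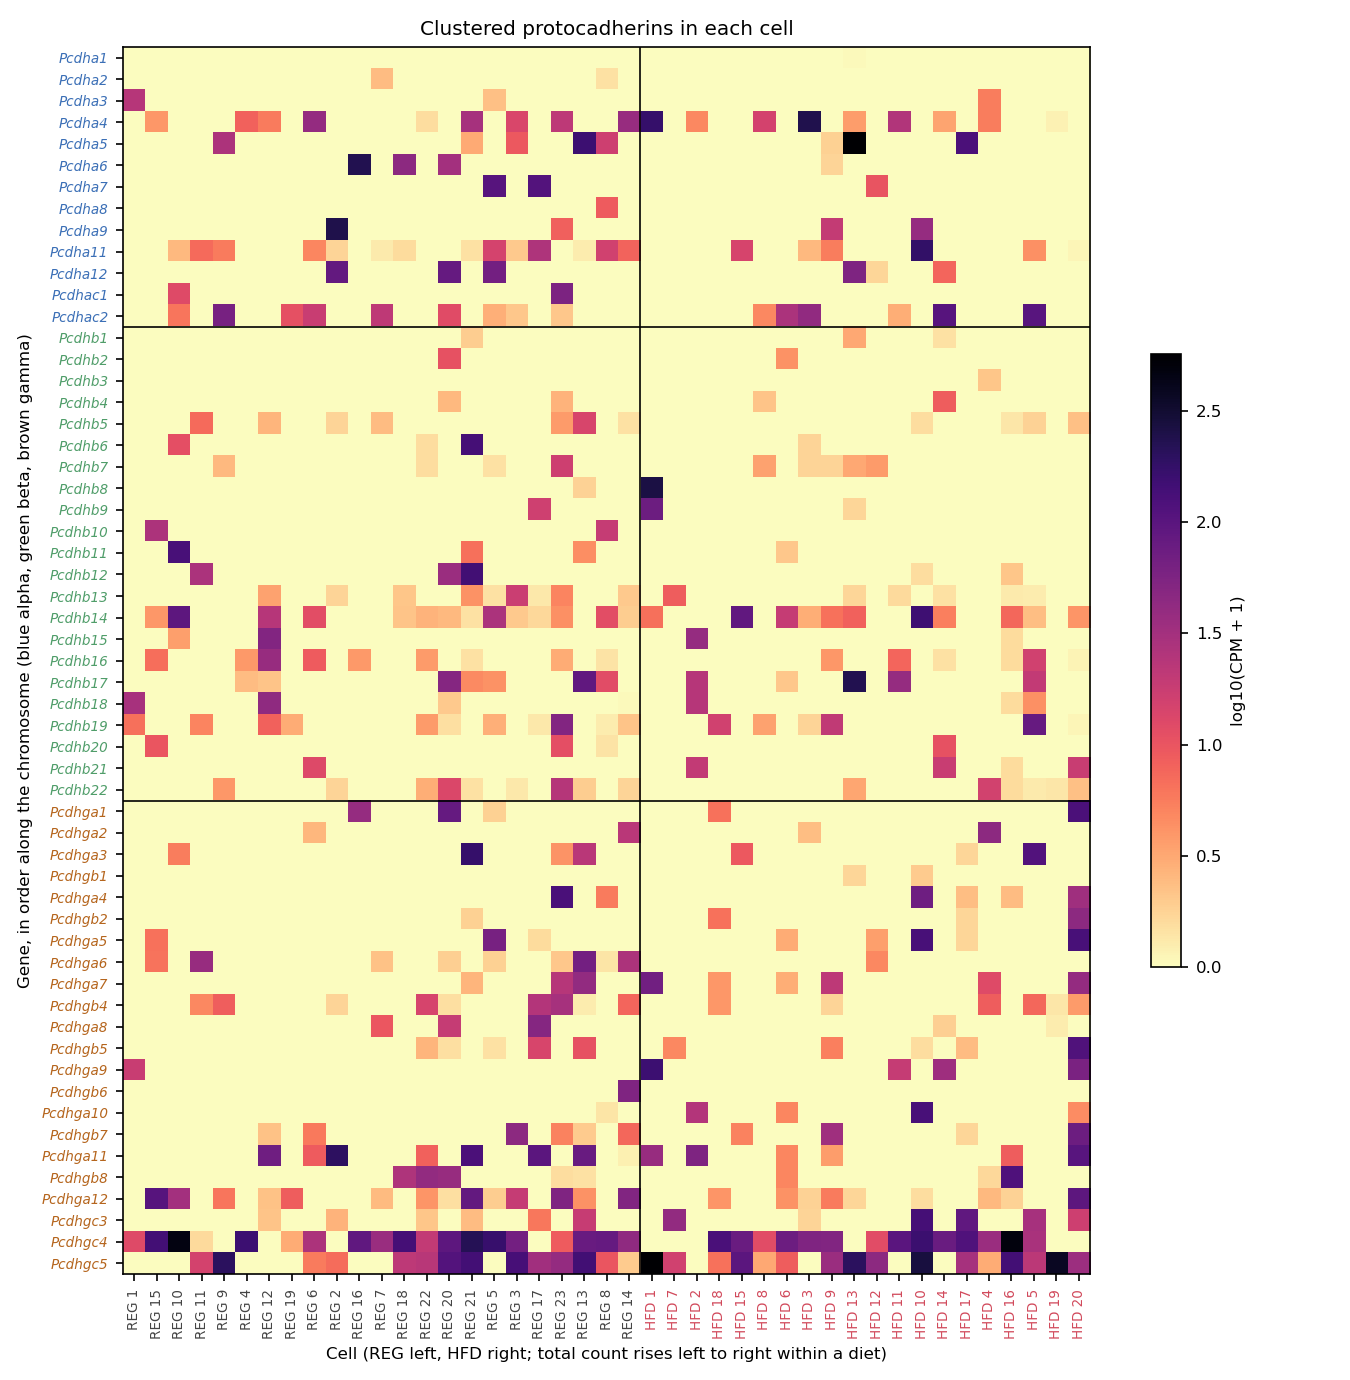
Each row is 1 of the 57 genes in chromosomal order (blue alpha, green beta, brown gamma) and each column is 1 of the 43 cells, with REG cells left and HFD cells right of the line and total counts rising to the right within a diet. Colour gives log10(CPM + 1). Most fields are at 0, each cell shows its own pattern of dark fields, and *Pcdhgc4* and *Pcdhgc5* at the bottom form the only nearly continuous bands.

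Among alternate isoforms, a cell had a median of 2 alpha genes (range 0 to 4), 3 beta genes (0 to 9) and 3 gamma genes (0 to 12) above 0. At 10 counts or more each of these medians was 1. C-type genes added a median of 2 (range 0 to 4). No alternate alpha gene was counted in 5 cells, no beta gene in 1 cell and no alternate gamma gene in 2 cells.

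Within a cluster, counts were concentrated on few isoforms. In the 26 cells with at least 10 counts on alternate alpha genes, the leading isoform took a median of 87.8% of them (range 40.0 to 100%), and a median of 1.5 isoforms held at least 10% each. In 28 such cells for beta genes the leading isoform took 67.1% (range 27.0 to 100%), and in 31 such cells for alternate gamma genes it took 70.0% (range 16 to 100%), with a median of 2 isoforms at 10% or more in both clusters. Over all 57 genes the leading isoform took a median of 39.3% of the member counts in a cell (range 14.7 to 99.7%).

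The number of isoforms moved with depth. Over the 43 cells, log10 of the total count and the number above 0 had Pearson's *r* = 0.61 and Spearman's coefficient = 0.63, with *r* = 0.57 after leaving out the 2 cells farthest from the median total. Cells of 1 mouse are not independent and both measures share the library, so these values are descriptions. When each cell was thinned to 150000 counts, the median fell to 6 isoforms (range 2 to 16), and Spearman's coefficient with the original total was 0.37 (*r* = 0.39, and 0.37 without the 2 cells). The number of all genes detected went with it more closely, with Spearman's coefficient = 0.87 (*r* = 0.84, and 0.83 without the 2 farthest cells) before thinning and Spearman's coefficient = 0.72 (*r* = 0.65, and 0.62) after it.

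**Figure D2:**
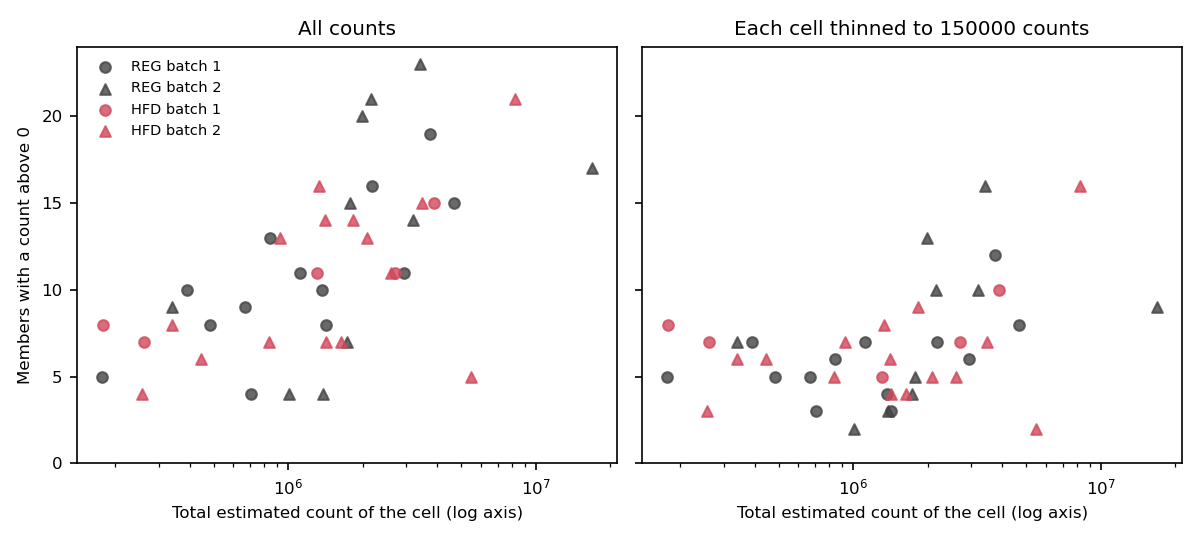
The number of members with a count above 0 (vertical axis) is plotted against the total estimated count of each cell (horizontal log axis), for all counts (left) and after thinning every cell to 150000 counts (right); grey is REG, red is HFD, circles are batch 1 and triangles batch 2. Numbers rise with the total on the left, from 4 to 23, and lie between 2 and 16 on the right.

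After thinning, the numbers of alternate isoforms in different clusters went together weakly at most. Spearman's coefficient over the 43 cells was −0.02 for alpha and beta (*r* = 0.04, and 0.03 without the 2 farthest cells), 0.16 for alpha and gamma (*r* = 0.06, and 0.16) and 0.21 for beta and gamma (*r* = 0.27, and 0.23). At such sparse counts these are not read as a finding in either direction. Spearman's coefficient between the thinned number of isoforms and the summed level of a marker list was 0.05 for GABAergic neurons, 0.09 for D1 medium spiny neurons, −0.12 for astrocytes, 0.22 for microglia, 0.06 for oligodendrocytes and −0.33 for endothelial cells. The astrocyte and endothelial values mainly reflect *S100b* and *Pecam1*, which lead those sums.

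All members together held a median of 0.0286% of a cell's counts, or 286 CPM (range 21.6 to 1323), which was 342 counts (range 15 to 7298). The gamma cluster took most of it, with a median of 64.6% of the member counts in a cell (range 16.7 to 99.9%). The alpha cluster took 17.1% (0 to 82.1%) and the beta cluster 12.3% (0 to 68.0%). Per transcript length, on the TPM scale, the medians were 70.5%, 13.9% and 5.87% for gamma, alpha and beta.

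The 5 C-type genes held a median of 42.8% of the member counts (range 0 to 99.7%). This share includes *Pcdhgc4* counts on a transcript with few words of its own, described below. Over alternate isoforms alone the median shares were 40.7% gamma, 28.0% beta and 20.8% alpha. Shares varied widely from cell to cell: the SD over cells was 22 percentage points for gamma, 20.7 for alpha and 15.2 for beta.

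*Pcdhgc4* was counted in 34 of 43 cells (79.1%, exact 95% interval 64.0 to 89.96%) and *Pcdhgc5* in 30 (69.8%, 53.9 to 82.8%), the widest detection of the 57 genes. *Pcdhac2* followed with 15 cells, *Pcdhgc3* with 12 and *Pcdhac1* with 2. *Pcdhgc4* was the leading isoform in 13 cells and *Pcdhgc5* in 8. Their levels on the TPM scale averaged 50.1 and 29.6, and the highest mean of an alternate isoform was 6.05 TPM (*Pcdhga11*).

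C-type genes occurred in varied combinations. *Pcdhgc4* and *Pcdhgc5* were both counted in 23 cells, *Pcdhgc4* without *Pcdhgc5* in 11, *Pcdhgc5* without *Pcdhgc4* in 7 and neither in 2. At 10 counts or more, 16 cells had both, 13 only *Pcdhgc4*, 6 only *Pcdhgc5* and 8 neither. Both cells with *Pcdhac1* also had *Pcdhac2*, at under 10 counts, and *Pcdhac1* reached 10 counts only in REG 23 (194 counts, 56.8 CPM).

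The transcript behind a count can be read from these files, because the ratio of count to TPM within a cell grows linearly with transcript length. The relation was fitted on genes with 1 annotated transcript of over 1000 bases (108 to 778 per cell). It returned their lengths with a median error of at most 0.0290% in every cell. Shorter lengths were extrapolated. For *Pcdhgc4* the relation placed 22 of the 29 values of at least 10 counts on a coding transcript of 2272 bases and 1 on the longest coding transcript (5024 bases), and the other 6 were mixtures. Only 6.7% of the words of the 2272-base transcript are found in no other member, and 93.3% are shared with other members. Whether reads placed there came from *Pcdhgc4* or from other gamma isoforms was not tested.

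With all values on transcripts that have under 10% words of their own set to 0, *Pcdhgc4* was left in 7 cells in place of 34. The same step took *Pcdha11* from 20 to 18 cells and touched no other gene. It removed only values matched to 1 such transcript, and values read as mixtures were kept. Among these were *Pcdha11* values at implied lengths of 633 to 648 bases. They lie near its 625-base transcript, of whose words 8.7% are its own, so the step may remove too few cells. The median number of isoforms per cell then was 10, and the median share of the gamma cluster 58.3%. The 109 *Pcdhgc4* counts on the 5024-base transcript were in REG 4, where they made 93.2% of the member counts.

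*Pcdhgc5* and *Pcdhac2* rested on longer transcripts. Of 22 *Pcdhgc5* values of at least 10 counts, 12 lay on the 4741-base coding transcript, of whose words 55.6% are its own, 2 on a 5777-base transcript that retains an intron, 1 on a 593-base transcript and 7 were mixtures. All 9 *Pcdhac2* values lay on the 5888-base transcript, with 51.6% words of its own. *Pcdhgc3* had 4 of 7 on its 4687-base and 2 on its 3588-base transcript, which is annotated as subject to nonsense-mediated decay.

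**Figure D3:**
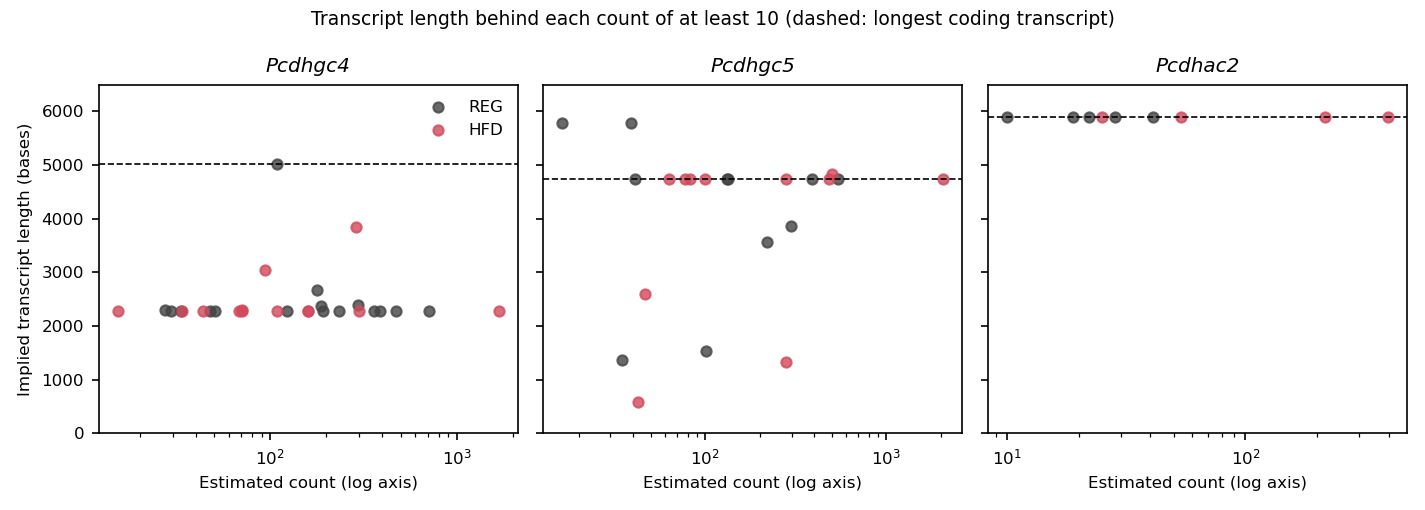
The transcript length implied by count and TPM (vertical axis, bases) is plotted against the estimated count (horizontal log axis) for each cell with at least 10 counts, in panels for *Pcdhgc4* (29 cells), *Pcdhgc5* (22) and *Pcdhac2* (9), with grey for REG, red for HFD and a dashed line at the longest coding transcript. *Pcdhgc4* points lie near 2272 bases except for a few, *Pcdhgc5* points mostly lie at 4741 bases, and all *Pcdhac2* points lie at 5888 bases.

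*Pcdha11* (20 cells), *Pcdha4* (18) and *Pcdha5* (8) were the most widely counted of the 11 genes. Fewest cells had *Pcdha8* (1 cell, 37.2 counts), *Pcdha2* (2 cells, 4.25 counts in all) and *Pcdha3* (3 cells, 19.3 counts in all). The median was 4 cells. *Pcdha1* was listed above 0 in 4 cells, but its values sum to 0.130 counts.

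Breadth and strength were not the same. *Pcdha11* reached 10 counts in only 6 of its 20 cells, and 63.4% of its summed CPM came from HFD 10. *Pcdha5* reached 10 counts in 6 of 8 cells, and its highest level, 569 CPM (801 counts) in HFD 13, was the highest of any member in any cell. In that cell *Pcdha5* made 53.1% of the member counts. *Pcdha4* led in 3 cells, with 69.5% of the member counts in HFD 3 (236 CPM).

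The alpha values have limits of annotation. In the *Pcdha4* gene, 41.1% of the words also occur in non-member genes of the table, above all the readthrough gene *Gm42416*, which was at 0 in all 43 cells. *Pcdha11* has 2 annotated gene identifiers, and its 6 values of at least 10 counts fell on 4 different transcripts or mixtures of them. Of its 20 values above 0, 2 reached 90% of its longest coding length, and the median implied length was 3323 bases. *Pcdha12*, *Pcdha5*, *Pcdha7* and *Pcdha9* rested wholly on their coding transcripts of 5206 to 5341 bases.

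*Pcdhb14* (25 cells), *Pcdhb19* (17) and *Pcdhb16* (15) were the most widely counted of the 22 genes, and *Pcdhb3* (1 cell, 3 counts), *Pcdhb2* (2 cells) and *Pcdhb10* (2 cells) were among the least. The median was 4.5 cells. Counts were low: of 169 values above 0, 34.9% reached 10 counts, against 53.4% for alternate alpha, 47.7% for alternate gamma and 73.1% for C-type genes.

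*Pcdhb14* levels ran from 0 to 92.5 CPM in REG cells (median 0.925) and from 0 to 149 CPM in HFD cells (median 1.65), and 13 cells had at least 10 counts. *Pcdhb8* was at 258 CPM in HFD 1, from 46 counts in a cell with 178341 in all, and that cell held 99.7% of its summed CPM. *Pcdhb17* was at 230 CPM (323 counts) in HFD 13, the cell that also led for *Pcdha5*. REG 12 was the cell most given to the cluster, with 68.0% of its member counts on beta genes.

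Detection of beta genes went with transcript length. Across the 22 genes, the longest coding transcript and the number of cells detected had Spearman's coefficient = 0.67 and *r* = 0.83 (0.64 without the 2 genes farthest from the median length). *Pcdhb14* has the longest, at 8695 bases, and *Pcdhb19* follows at 7138 bases. Order along the cluster and the number of cells detected had Spearman's coefficient = 0.60 (*r* = 0.47, and 0.39 without the 2 farthest genes), higher toward the gamma side. For the number of cells with at least 10 counts, the coefficient was 0.64 with length (*r* = 0.82, and 0.66 without the 2 genes) and 0.77 with order (*r* = 0.48, and 0.41). Genes share the same cells and are not independent replicates. Length and position were not separated.

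*Pcdhga12* (23 cells), *Pcdhgb4* (15) and *Pcdhga11* (14) were the most widely counted of the 19 genes, and *Pcdhgb6* (1 cell), *Pcdhgb1* (2 cells, 2.80 counts in all) and *Pcdhgb2* (4 cells) were among the least. The median was 7 cells. *Pcdhgb6* gave 906 counts (53.5 CPM) in REG 14, the deepest cell, and 0 in the other 42.

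*Pcdhga11* was the stronger of the broad isoforms, with at least 10 counts in 9 of its 14 cells and up to 192 CPM in REG 2. All 9 values lay on its 4756-base coding transcript. For *Pcdhga12*, 3 of the 8 values of at least 10 counts lay on the 5080-base coding transcript, 3 on a 4352-base transcript that retains an intron and 2 were mixtures. For *Pcdhgb4*, 6 of 7 lay on a 3682-base transcript annotated as non-coding. In all, 12.5% of the alternate gamma values of at least 10 counts lay on transcripts of these non-coding classes, against 5.13% for alternate alpha and 0% for beta.

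**Figure D4:**
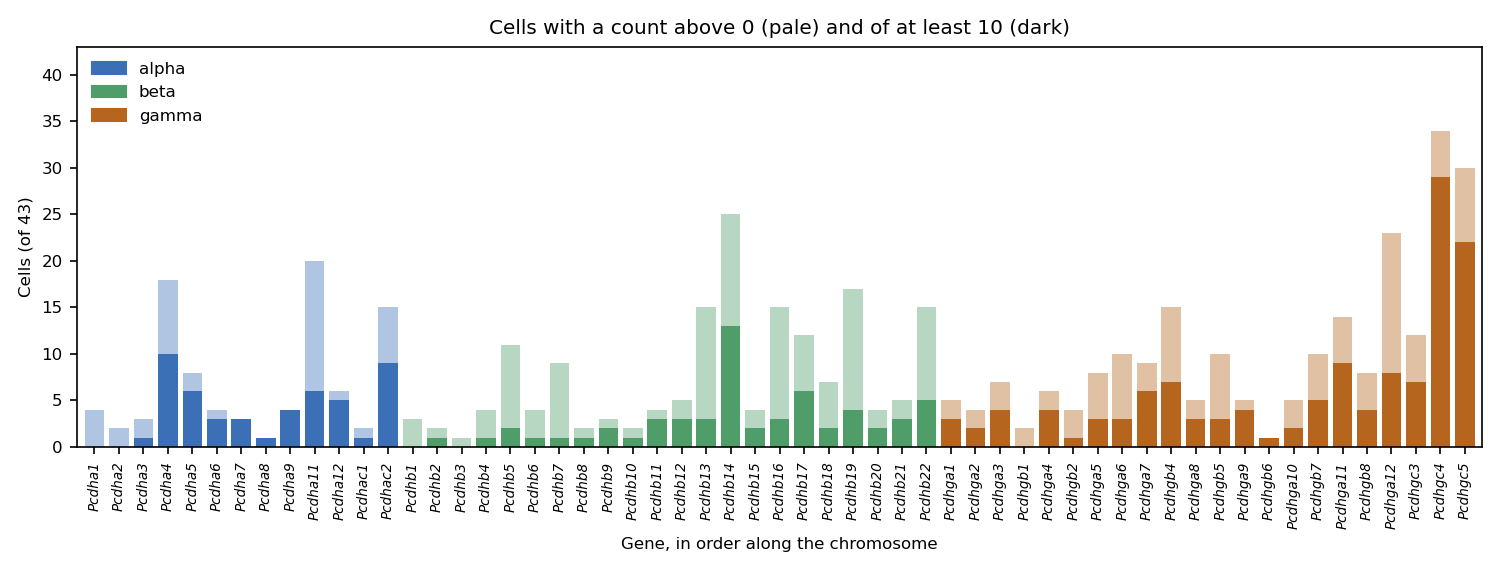
Bars give the number of cells (of 43) in which each gene had a count above 0 (pale) or of at least 10 (dark), in chromosomal order, with blue for alpha, green for beta and brown for gamma. *Pcdhgc4* (34 cells) and *Pcdhgc5* (30 cells) stand highest, and 29 of the 57 genes were counted in at most 5 cells.

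All 57 genes were counted in at least 1 cell, and 4 of them (*Pcdhgc4*, *Pcdhgc5*, *Pcdhb14* and *Pcdhga12*) in at least 22 of 43 cells. Over all 23541 genes with a count in any cell, 44% were counted in at least 22 cells and 4.62% in every cell, which 0 of the members were. Among the 10802 genes past a filter of more than 15 CPM in at least 5 cells and a mean above 4 CPM, 86.2% were counted in at least 22 cells, as were 4 of the 12 members that passed it. At most 5 cells had each of 29 members, and 5 members (*Pcdha1*, *Pcdha2*, *Pcdhb1*, *Pcdhb3* and *Pcdhgb1*) reached 10 counts in no cell. In 32 of 57 members, over 50% of the summed CPM came from 1 cell, which was the case for 36.5% of the 23541 genes. All but 1 of these were alternate isoforms (31 of 52).

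No 2 cells had the same set of alternate isoforms. All 43 sets above 0 were distinct, as were all 43 after thinning. At 10 counts or more, 37 cells had any alternate isoform and showed 34 distinct sets. The Jaccard index (isoforms shared by 2 cells over isoforms in either) had a median of 0.133 over the 903 pairs of cells, and 17.4% of the pairs shared none.

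By cluster, the pairs that shared no alternate isoform were 58.7% of 893 for alpha, 38.1% of 903 for beta and 48.1% of 902 for gamma. At 10 counts or more, 70.2% of 888 pairs shared none over all alternate isoforms. A pair with 1 cell that had no isoform of the set counts as sharing none. Such cells numbered 5 for alpha, 1 for beta and 2 for gamma above 0, and 6 at 10 counts or more. These shares therefore include a lack of detection as well as different isoforms. For 12 non-clustered protocadherins, which are single genes elsewhere in the genome, the median index above 0 was 0.625. Every pair shared at least 1 gene, because *Pcdh10* was counted in all 43 cells. At 10 counts or more their median index was 0.40 and 1.55% of the pairs shared none. Over the 43 cells they also gave many distinct sets, 34 above 0, 36 after thinning and 35 at 10 counts or more. Distinct sets are therefore not particular to the clustered genes. These genes were counted in a median of 27 cells, against 4, 4.5 and 7 for alternate alpha, beta and gamma genes. Overlap was not separated from this difference in detection. For the 5 C-type genes the median index above 0 was 0.50, with 13 different sets. Pairs from the same diet had a mean index of 0.140 over alternate isoforms and pairs from different diets also 0.140, and for batch the means were 0.139 and 0.141.

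Few isoforms did not always mean few reads. HFD 19, with 5468192 counts in all, had 5 isoforms, and *Pcdhgc5* made 99.7% of its member counts (2068 counts). REG 16 had 4 isoforms in 1386338 counts, with 63.9% on *Pcdha6* (318 counts). Both cells also had few genes detected of any kind. REG 16 had 6143, the fewest of all cells, and HFD 19 had 7460, against a median of 10065. Their low isoform numbers are not separated from this. By contrast, HFD 2 was a shallow cell, with 262790 counts in all and 48.6 on members. It had no C-type count and spread its counts over 7 alternate isoforms.

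At the other end, REG 23 had 23 isoforms, led by *Pcdhga4* with 25.8%, and HFD 20 had 21. Of those in HFD 20, 12 were alternate gamma genes and 18 members reached 10 counts, led by *Pcdhga5* with 14.7%. Both cells kept 16 isoforms after thinning, the highest of the 43. In REG 14, which was sequenced most deeply, 17 isoforms fell to 9 on thinning.

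The summed level of each cluster overlapped widely between REG and HFD cells. Alpha genes ran from 0.562 to 326 CPM in REG cells (mean 72.6, median 38.7) and from 0 to 628 CPM in HFD cells (mean 88.3, median 21.3), a log2 ratio of means of 0.28. Beta genes ran from 1.40 to 292 CPM (mean 56.7, median 30.1) and from 0 to 336 CPM (mean 63.2, median 23.02), a ratio of 0.16. Gamma genes ran from 9.70 to 739 CPM (mean 209.9, median 200.1) and from 12.8 to 901 CPM (mean 277, median 153), a ratio of 0.40. The means were higher and the medians lower in HFD cells in all 3 clusters, so that no direction held across summaries.

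Few cells set these means. Without HFD 13 the alpha ratio was −0.28, and without HFD 1 the beta ratio was −0.22. In batch 1 and batch 2 alone, the ratios were 0.61 and 0.18 for alpha, 1.09 and −0.39 for beta, and 0.47 and 0.21 for gamma. For alternate gamma isoforms the ratio was 0.11, and without HFD 20 it was −0.58. Fewer reads per isoform and fewer cells with it cannot be told apart in these means.

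**Figure D5:**
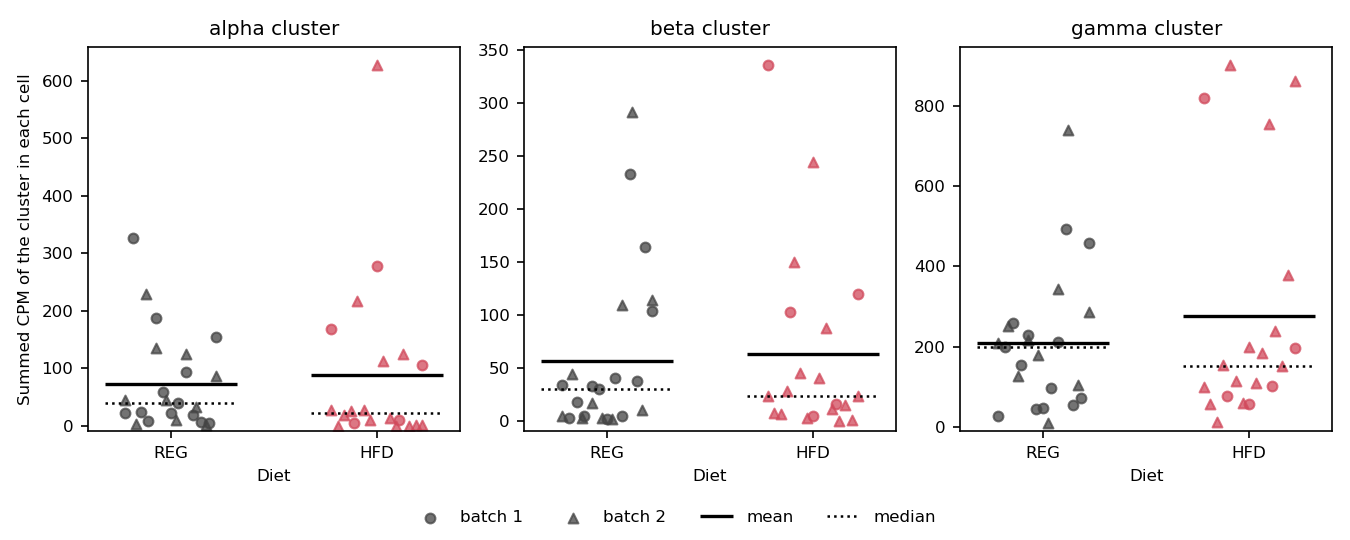
Points give the summed CPM of the alpha, beta and gamma genes in each cell (vertical axis, separate scale per panel), for 23 REG cells (grey) and 20 HFD cells (red), circles for batch 1 and triangles for batch 2, with solid lines at means and dotted lines at medians. The diets overlap in every panel, and means lie above medians because of a few high cells.

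The number of isoforms was close between diets. REG and HFD cells both had a median of 11 above 0 (ranges 4 to 23 and 4 to 21) and of 6 after thinning (both 2 to 16). At 10 counts or more the medians were 5 and 4.5. In batch 1 the medians above 0 were 10 in REG and 11 in HFD cells, and in batch 2 they were 14.5 and 11. Median totals in batch 2 were 1884341 counts in REG and 1426795 in HFD cells, and after thinning the batch 2 medians were 8 and 6 isoforms.

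C-type genes were higher in HFD cells in sum, with means of 127 and 192 CPM and medians of 92.0 and 121 CPM in REG and HFD cells (log2 ratio 0.60, with 0.39 in batch 1 and 0.73 in batch 2, and 0.41 to 0.79 with any 1 cell left out). The ranges, 1.19 to 473 CPM and 0 to 627 CPM, overlapped over most of their length. These sums include *Pcdhgc4*, with means of 79.3 CPM in REG and 70.1 CPM in HFD cells. Of its counts, 81.4% lay on transcripts with under 10% words of their own, and no C-type ratio without them is given. Summed markers of other cell types also had higher medians in HFD than in REG cells, with 133 and 100.01 CPM for astrocytes, 76.6 and 25.9 CPM for microglia, 136 and 88.2 CPM for oligodendrocytes and 318 and 259 CPM for endothelial cells. Those of D1 medium spiny neurons were lower, with 2532 and 3454 CPM, as were those of GABAergic neurons, with 713 and 776 CPM. The astrocyte and endothelial sums were led by *S100b* and *Pecam1*. The part of the markers in the C-type difference was not tested.

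*Pcdhgc5* levels ran from 0 to 199 CPM in REG cells (median 5.97) and from 0 to 560 CPM in HFD cells (median 25.3), with counts in 14 of 23 and 16 of 20 cells. The log2 ratio of means was 1.28, with 1.57 in batch 1 and 1.22 in batch 2 and 0.84 to 1.6 with any 1 cell left out. *Pcdhgc3* had a ratio of 3.68 (means 1.21 and 15.5 CPM; 1.94 in batch 1 and 4.62 in batch 2), with 6 cells counted in each diet, and was 2.93 without HFD 10 and 5.02 without REG 13. *Pcdhac2* had a ratio of 1.32 (means 5.59 and 13.96 CPM), with 9 and 6 cells counted, and was 0.73 without HFD 14 and 2.19 without REG 9. Medians were 0 in both diets for *Pcdhgc3* and *Pcdhac2*.

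*Pcdhgc4* was level, with medians of 42.1 CPM in REG and 43.8 CPM in HFD cells and a ratio of −0.18, which was −1.83 in batch 1 and 0.20 in batch 2. No test separates these values from differences between mice.

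Of the 8 alternate isoforms past the filter described above, the ratio changed sign with 1 cell left out in *Pcdha5*, *Pcdhb17* and *Pcdhb14*. *Pcdha5* had a ratio of 1.95 (means 8.98 and 34.7 CPM) that became −0.44 without HFD 13, and *Pcdhb17* 1.21 (6.71 and 15.5 CPM) that became −0.67 without the same cell. *Pcdhb14* had 0.92, with −2.82 in batch 1 and 3.87 in batch 2, and −0.05 without HFD 10. *Pcdhga9* had 4.16, but REG cells held 3 counts of it in all. On summed counts its ratio was 8.09 (exact 95% counting interval 6.54 to 10.4). *Pcdhga12* had −1.55 (15.9 and 5.42 CPM), with −4.29 without HFD 20 and −1.14 without REG 15 as the extremes over cells left out.

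For comparison across the genome, the same filter kept 10802 genes and 12 of the 57 members, leaving 45 out. Log2 ratios of 1 or more were found in 9.04% of the 10802 genes and of −1 or less in 14.3%. Among the 12 members, 8 were at 1 or above and 2 at −1 or below. A gene counted in few cells passes that filter through the diet in which it is high, so nothing is read from these counts.

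The machinery of promoter choice was present in most cells. Of 18 genes for insulator, cohesin and chromatin proteins, each counted in 4 to 43 cells (median 37), 16 passed the filter and 0 had a log2 ratio past 1 in either direction, beside 23.3% of all filtered genes. *Ctcf*, the insulator protein at these promoters, was counted in 36 cells, with medians of 33.2 CPM in REG and 43.02 CPM in HFD cells and a ratio of 0.87, which was 2.34 in batch 1 and −0.10 in batch 2. *Stag1*, a cohesin subunit, had 0.89 (1.33 and 0.66 in the batches). *Wapl*, which releases cohesin from chromatin, and its partner *Pds5b* had −0.44 and −0.65, with the opposite sign in batch 2 (0.40 and 0.12). *Dnmt3b*, a DNA methyltransferase, was counted in 4 cells only.

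Of 12 partner genes in signalling, processing and adhesion, 11 passed the filter and 0 were past 1 in either direction, beside 23.3% of all filtered genes. The lowest ratios were those of *Ptk2* (−0.99) and *Ptk2b* (−0.27), the focal adhesion kinases that clustered protocadherins restrain, and the highest those of the kinase *Wnk1* (0.64) and the protease *Adam10* (0.60). The *Ptk2* ratio lay close to the limit and ran from −1.37 to −0.69 with any 1 cell left out.

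Of the 12 non-clustered protocadherins, 9 passed the filter, 3 with ratios of 1 or more and 2 with −1 or less. Over all 10802 filtered genes the shares were 9.04% and 14.3%. The limit of the filter given for the clustered members holds here too, so nothing is read from these counts. *Pcdh1* had 2.44 (medians 0.896 CPM in REG and 5.29 CPM in HFD cells), with 3.32 and 2.02 in the batches. *Pcdh8* had 1.81, which became −0.27 without HFD 2. *Pcdh11x* had −2.01 (medians 10.97 and 1.34 CPM) and *Pcdh15* −1.24 (8.24 and 3.16 CPM), both of the same sign in each batch. The ranges of REG and HFD cells overlapped for all 4.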

How the data were processed

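The authors prepared cDNA from the cytosol of each patched cell with SMART-Seq kits and Nextera XT libraries, pseudo-aligned the reads to the GRCm38 transcriptome with kallisto, and excluded cells whose read or gene numbers fell well short of the median. One table deposited by the authors holds estimated counts per gene without normalization. The other holds TPM, which the authors' tool scaled to a sum of 1000000 in each cell. Members and gene lists were chosen with earlier results of these data known.

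From the counts, CPM, detection, cluster shares and Jaccard indices were computed. Thinning drew 150000 counts per cell without replacement after rounding (fixed seed). Singly named genes were the C-type genes, the 3 counted in most and in fewest cells per cluster, the extremes of the ratio among filtered genes per cluster, and the 2 highest and 2 lowest of each other list. Leading isoforms of single cells were named after their values were seen. Shared words of 31 bases and transcript lengths came from the GENCODE M21 transcripts (GRCm38), a different release from the authors', restricted to genes with a row. Sequences are not reported here. Scripts, checked on simulated data, ran in R 4.3.3 and Python 3.11.15, with scipy 1.17.1, pandas 2.3.3, matplotlib 3.10.9 and numpy 2.4.6. edgeR 4.0.16 and DESeq2 1.42.0 gave scaling factors only. Detection limits, scalings, summaries over cells, batches and leaving out each cell were the alternatives.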

Additional observations from a re-analysis of the deposited data

How the results depend on the processing

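The number of isoforms per cell depended on the detection limit and on depth: the median of 11 became 5 at 10 counts or more, 3 above 15 CPM and 6 after thinning, and was 10.5 and 13 in the first and second batch and 13 without cells under 500000 counts. Without C-type genes, the median share was 28.0% for beta and 40.7% for gamma. The median Jaccard index of 0.133 became 0 at 10 counts or more, above 15 CPM and after thinning. The diet ratios moved with most choices. The alpha ratio of 0.28 was 0.094 on TPM, 0.54 with TMM factors, 0.95 with DESeq2 size factors, 0.18 after thinning, −0.10 on summed counts, −0.86 for medians, −0.87 when mean log2(CPM + 1) values were subtracted, 0.61 and 0.18 in the first and second batch, 1.75 over filtered members and between −0.28 and 0.53 with 1 cell left out. The beta ratio of 0.16 was 0.0054 with totals that leave out *Lars2* and *Gm19220*, 0.42 after thinning, −0.056 on summed counts, −0.39 for medians, 1.09 in batch 1, −0.39 in batch 2, 1.06 over filtered members and between −0.22 and 0.46 with 1 cell left out. The gamma ratio of 0.40 was 0.44 with TMM factors, 0.88 with DESeq2 size factors, 0.27 with totals that leave out those genes, 0.82 on summed counts, −0.38 for medians, 0.19 when mean log2(CPM + 1) values were subtracted, 0.47 and 0.21 in the first and second batch, 0.11 without C-type genes and between 0.22 and 0.57 with 1 cell left out. Over all filtered genes the median ratio shifted by 0.14 with TMM factors and by 0.32 with DESeq2 size factors. Sign changes were followed in the C-type genes and the genes named for their ratio. Of those past 1, *Pcdha5* turned to −0.44 and *Pcdhb17* to −0.67 without HFD replicate 13. *Pcdh8* turned to −0.086 in batch 2 alone and −0.27 without HFD replicate 2. With 1 cell left out, the highest ratios of these 3 genes were 3.87, 2.32 and 2.73. Genes named for breadth also turned. *Pcdha4* (1.77) was −1.64 in batch 2 and −0.62 on summed counts. *Pcdha11* (1.53) was −1.90 and *Pcdhgb4* (−1.82) was 1.61 in batch 1. The causes were not tested. Limits of at least 1 count, transcripts with few words of their own, C-type genes and cells under 500000 counts were alternatives chosen after the data were seen. No paired analysis was possible because no label ties a REG cell to an HFD cell or names a mouse. At these depths an isoform with no count in a cell is not shown to be absent from it.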
